A study of Mus musculus with 2 samples.

Results

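Cyp21a1 and Cyp17a1 encode the steroid 21-hydroxylase and the steroid 17α-hydroxylase/17,20-lyase. They were taken from the deposited tables by gene name, as 2 of 18168 annotated genes detected in adrenal gland. Every transcript model carrying either name was kept. Cyp21a1 had 171 models in replicate 1 and 143 in replicate 2, and Cyp17a1 had 2 and 1, of 104489 and 140263 models of all genes.

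The tissue was adrenal gland taken at 25 days of age from male B6CASTF1/J mice, a first-generation cross of C57BL/6J and CAST/EiJ. Both libraries were made from total RNA for long-read sequencing, in which 1 read can cover a transcript from end to end. The labels put them in 1 group, as replicates 1 and 2, with no treatment or genotype to compare. Input of 1 µg RNA is given for replicate 2 alone. Descriptions of the libraries point to 1 shared animal and those of the tissues to separate animals, so the spread between replicates may be technical. Reads in annotated genes numbered 752432 in replicate 1 and 1210671 in replicate 2. A level is the number of reads per 1000000 of those (CPM), and the limit that a count of 0 allows, 3 reads, is 3.99 and 2.48 CPM.

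Both enzymes are cytochromes P450 of the endoplasmic reticulum that receive electrons from the reductase Por. The 21-hydroxylase turns progesterone into 11-deoxycorticosterone, the precursor that Cyp11b1 makes into corticosterone and Cyp11b2 into aldosterone. The 17α-hydroxylase opens the routes to cortisol and to androgens. The cortex of the adult mouse adrenal makes little of it, which is why corticosterone is the main glucocorticoid of the mouse.

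Cyp21a1 (ENSMUSG00000024365.9) lies on the minus strand at chr17:34801348-34804561 (mm10) and spans 3214 bp. GENCODE M21 gives it 3 transcripts, of which ENSMUST00000025223.8 is the coding one, called the annotated transcript hereafter, with 10 exons and 2058 bases. Cyp17a1 (ENSMUSG00000003555.8) lies on the minus strand at chr19:46667165-46673172 and spans 6008 bp. Its leading coding transcript, ENSMUST00000026012.7, has 8 exons and 1815 bases. The coding parts, stop codon included, were 1464 bases in Cyp21a1 and 1524 in Cyp17a1. Their global alignment put 846 of 1420 aligned bases in identity (59.6%).

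**Figure D1:**
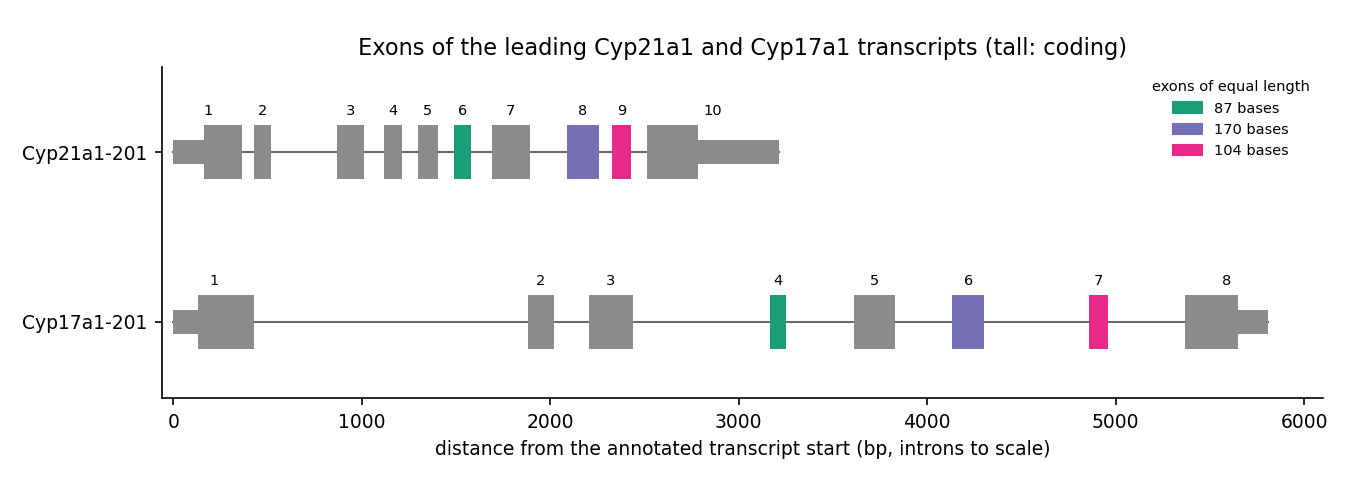
Exons of the leading transcripts of both genes, drawn to scale along the distance from the annotated transcript start in bp. Tall boxes are coding and low boxes untranslated, and colours join the exons of equal length, which are exons 6, 8 and 9 of Cyp21a1 and exons 4, 6 and 7 of Cyp17a1.

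The introns of Cyp21a1 measured 64 to 352 bp and those of Cyp17a1 189 to 1454 bp. Toward the 3′ end the exon plans matched. Exons 6, 8 and 9 of Cyp21a1 had 87, 170 and 104 bases, as had exons 4, 6 and 7 of Cyp17a1, and the intron after each pair fell in the same reading phase (0, 2 and 1). Set side by side without gaps, 37 of 87 bases (42.5%), 88 of 170 (51.8%) and 53 of 104 (51.0%) were identical. The last pair is shown 5′ to 3′ from the GENCODE transcripts as an example of how far the members differ, with the bases equal in both exons in capitals.
Cyp21a1 exon 9, chr17:34802133-34802236: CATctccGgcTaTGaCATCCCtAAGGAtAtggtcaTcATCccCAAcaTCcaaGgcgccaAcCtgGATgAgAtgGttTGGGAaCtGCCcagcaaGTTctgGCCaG
Cyp17a1 exon 7, chr19:46668014-46668117: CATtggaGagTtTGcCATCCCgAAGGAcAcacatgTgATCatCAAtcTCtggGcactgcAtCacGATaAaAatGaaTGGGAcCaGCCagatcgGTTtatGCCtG

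Cyp21a1 was among the most abundant transcripts of the gland and Cyp17a1 was near the limit of detection. Cyp21a1 had 9935 reads in replicate 1 (13204 CPM) and 5105 in replicate 2 (4217 CPM), rank 2 and rank 8 of all genes. Cyp17a1 had 6 reads (7.97 CPM, exact 95% Poisson interval 2.93 to 17.4) and 9 reads (7.43 CPM, 3.40 to 14.1). Of the genes detected in each library, 34.3% and 40.5% had fewer reads than Cyp17a1. The levels of the members did not overlap in either library. Per kb of the leading transcript, Cyp21a1 stood at 6416 and 2049 CPM per kb and Cyp17a1 at 4.39 and 4.10. The level of Cyp21a1 per kb was 1460 times that of Cyp17a1 in replicate 1 (95% interval from the read counts 671 to 3980) and 500.2 times in replicate 2 (263 to 1095). By reads, without the division by length, Cyp21a1 had 1656 and 567 times the count of Cyp17a1.

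The intervals of Cyp21a1 per Cyp17a1 given above overlapped between libraries, so a different change in the members was not shown. The log2 ratio of replicate 2 to replicate 1 was -1.65 ± 0.02 (counting SE) for Cyp21a1, a level 3.13-fold higher in replicate 1, and the adjusted p of the two-sided Fisher's exact test was too small to be represented as a number. This test compares 2 libraries and not conditions, and 25.3% of the 11382 genes tested were called lower in replicate 2 by it, with a median log2 ratio of -0.34 over all genes, and 11.5% were called higher. The balance turns with the scaling: TMM factors gave 13.5% lower and 18% higher, and DESeq2 size factors 13.3% and 18.3%. Cyp21a1 was called lower under each of these. For Cyp17a1 the log2 ratio was -0.14 ± 0.73 with an adjusted p of 1 by Fisher's exact test. Its 95% interval, -1.58 to 1.30, holds changes of either sign, and its sign turned to 0.22 with TMM factors. At this depth no difference in Cyp17a1 was detectable.

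**Figure D2:**
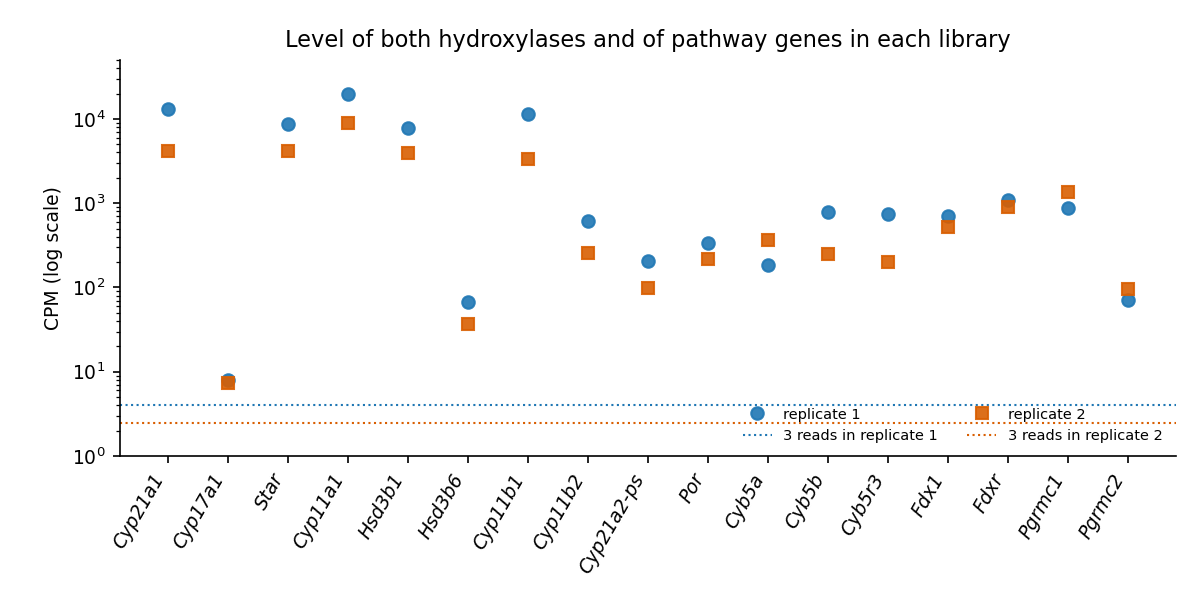
Level in CPM on a log scale of Cyp21a1, Cyp17a1, the listed steroid synthesis genes, the pseudogene Cyp21a2-ps and the listed electron donors, with 1 point per library. Dotted lines mark 3 reads in each library, and Cyp17a1 lies close above them at 7.97 and 7.43 CPM.

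In bulk tissue, fewer cortical cells and less RNA per cell cannot be told apart. The liver list of 6 genes was at 5.32 CPM in sum in replicate 1, where 4 of the genes had 0 reads, and at 43821 CPM in replicate 2, where Alb and Serpina3k led. The sum over the 6 skeletal muscle genes was 2392 CPM and 0.826 CPM, and 5 of them had 0 reads in replicate 2. With the genes of both lists left out of the total, the log2 ratio of Cyp21a1 was -1.59, and without the 618 genes over 10-fold different between libraries, a setting added once the data had been seen, it was -1.29. What these genes contribute to the ratio beyond the total was not tested. Of 8 adrenal cortex markers, all were detected in both libraries, and 7 were called lower in replicate 2, beside 25.3% of all genes. The X-zone list, whose cells form the inner cortex of young mice, summed to 1591 and 205 CPM, nearly all of it Akr1c18 (1558 and 196 CPM). Of its 3 genes 2 were called lower and none higher, beside 25.3% and 11.5% of all genes. Pik3c2g had only 10 and 2 reads, and Thrb, with 15 and 9, was not called. Of 4 markers of Leydig cells, the testis cells in which Cyp17a1 is abundant, Insl3, Hsd17b3 and Lhcgr had 0 reads in both libraries, and Hsd3b6 had 51 and 45. Of 4 zona glomerulosa genes 3 were lower in replicate 2 (sums 1320 and 335 CPM), as were 5 of 5 chromaffin genes (9412 and 7114 CPM) and 3 of 6 adipocyte genes (3692 and 2580 CPM). Beside these counts stand the 25.3% of all genes called lower, and none of the genes of these 3 lists was called higher. TMM factors shift every log2 ratio by 0.36 toward replicate 2, which leaves the sign of each cortex, zona glomerulosa and X-zone gene as it was and turns that of Chga, Cfd, Cidea and Plin1.

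The 6 other listed genes of steroid synthesis were all called lower in replicate 2, beside 25.3% of all genes, with a median log2 ratio of -1.09, or -0.73 with TMM factors. They had been named in earlier results on these libraries, so their direction is no independent evidence. Each of the 6 also stands in the adrenal cortex or the zona glomerulosa list above, so the counts of these lists overlap and are not separate evidence. Per kb of the leading known transcript, replicate 1 had Cyp11a1, the side-chain cleavage enzyme, at 9343 CPM per kb, then Cyp21a1 at 6416, Hsd3b1, which makes progesterone, at 4725, Cyp11b1 at 3584 and Star, which brings cholesterol into mitochondria, at 2143. Replicate 2 had Cyp11a1 at 4239, Hsd3b1 at 2365, Cyp21a1 at 2049, Cyp11b1 at 1063 and Star at 1037, so that Cyp21a1 and Hsd3b1 changed places on the scale per kb. That order depends on the lengths divided by, which were 4046 bases for Star and 3165 for Cyp11b1 against 2058 for Cyp21a1. It also depends on the length taken for Hsd3b1, of whose reads 90.6% and 91.2% were incomplete splice matches. By reads Cyp21a1 was above Hsd3b1 in both libraries. Replicate 1 had 14903 reads of Cyp11a1, 9935 of Cyp21a1, 8534 of Cyp11b1, 6524 of Star and 5912 of Hsd3b1. Replicate 2 had 10879, 5105, 4073, 5082 and 4761 reads, with the genes in the same order. The reads of Cyp21a1 per read of Hsd3b1 were 1.68 (95% interval 1.63 to 1.74) in replicate 1 and 1.07 (1.03 to 1.12) in replicate 2. Against Cyp11b1, the enzyme that uses the product of Cyp21a1, the ratio was 1.16 (1.13 to 1.20) and 1.25 (1.20 to 1.31), the nearest to constant in this list.

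Of the 8 electron donors and P450 partners, 5 were called lower and 2 higher in replicate 2, beside 25.3% and 11.5% of all genes, and 1 was not called. With TMM factors the ratio of Fdxr turns positive, so that 4 of the 8 lie on each side of 0. The 4 most abundant were Pgrmc1, Fdxr, Fdx1 and Cyb5b, and Por and Cyb5a were added for their known roles with the members. Fdxr and Fdx1, which feed the mitochondrial P450 enzymes rather than these members, had log2 ratios of -0.28 ± 0.07 and -0.44 ± 0.08. Por, the reductase of both members, had 254 and 266 reads and a log2 ratio of -0.62 ± 0.13. Cyb5b, a cytochrome b5 of the outer mitochondrial membrane, had 598 and 303 reads, and the reads of Cyp21a1 per read of Cyb5b were 16.6 and 16.8. Cyb5a, the cytochrome b5 that raises the lyase activity of Cyp17a1, was higher in replicate 2, with 138 and 443 reads and a log2 ratio of 0.99 ± 0.14. Pgrmc1, a haem-binding partner of P450 enzymes, was also higher there, at 0.66 ± 0.07. The liver list was high in replicate 2 as well, and its part in both results was not tested. Per kb, Cyb5a stood at 220 and 439 CPM per kb, far above Cyp17a1 in both libraries.

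Beyond Cyp17a1, the listed genes of androgen synthesis were sparse. Of 7, Hsd17b3 and Cyp19a1, which make testosterone and oestrogens, had 0 reads in both libraries, and Hsd17b1 had 1 in each. Srd5a2, a 5α-reductase, was the exception with 497 and 553 reads and a log2 ratio of -0.53 ± 0.09. Sult2a8, a sulfotransferase, had 0 reads in replicate 1 and 243 in replicate 2, where the liver list was high, and the part of that list in this result was not tested. Of the 4 genes tested, 1 was called lower and 1 higher, beside 25.3% and 11.5% of all genes, and Srd5a1 and Srd5a3 were not called, with at most 28 reads in a library.

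Of the 10 listed regulators, 9 were tested, and 2 were called lower and 1 higher in replicate 2, beside 25.3% and 11.5% of all genes. Nr5a1 (SF-1), the nuclear receptor that drives steroidogenic P450 genes, had 404 and 338 reads and a log2 ratio of -0.94 ± 0.11. Mrap, which carries the ACTH receptor Mc2r to the cell surface, had 276 and 148 reads and a ratio of -1.58 ± 0.15. Mc2r itself, named for that link, had 30 and 67 reads and was not called, and neither was Gata6, a factor of adrenal development, with 77 and 98 reads. Nr4a1, an immediate early nuclear receptor, had 13 and 135 reads and a ratio of 2.64 ± 0.41.

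Among the 46 other protein-coding genes that reached 1000 reads in both libraries, those whose log2 ratio lay nearest to that of Cyp21a1 were Akr1b7 (-1.66), Fads2 (-1.60), Cyp11b1 (-1.75), Kcnk3 (-1.47) and Abcb1b (-1.45). Likeness over 2 libraries describes a single difference. Only 3 of the 46, Sparc, Cyp11b1 and Akr1b7, had a more negative ratio, among these genes and under this scaling.

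Most Cyp21a1 reads carried the complete annotated intron chain. The chain of all 9 introns of the annotated transcript took 8429 of 9935 reads in replicate 1 (84.8%, 95% Clopper-Pearson interval 84.1 to 85.5) and 3976 of 5105 in replicate 2 (77.9%, 76.7 to 79.0). Neither of the noncoding transcripts, Cyp21a1-202 and Cyp21a1-203, was quantified as a known model. From replicate 1 to replicate 2 the share fell by 6.96 percentage points, with an adjusted p of 3.38e-23 by Fisher's exact test over 5749 genes, of which 9.6% were called lower and 2.47% higher. Of the genes that reached 1000 reads in both libraries, 47 had a multi-exon leading chain. Their median share of reads on that chain was 87.4% and 83.2%, and the median difference was -2.82 points. Of these 47, Cyp21a1 included, 24 were called lower and 4 higher, so such a call was common at this depth. The share of Cyp21a1 was exceeded by 31 and 30 of these genes. Cyp11b1, one of the 5 genes nearest to Cyp21a1 in ratio, had shares of 90.9% and 83.2% and was called lower. Cyp11a1, at 64.8% and 55.8%, and Star, at 80.1% and 77.9%, were called lower too. The falls of Cyp11a1 and Cyp11b1 were both larger than that of Cyp21a1, and the fall of Star was smaller. Hsd3b1, at 79.9% and 78.8%, was not called. Of its reads 90.6% and 91.2% were incomplete splice matches, so most reads of its leading chain are of that class, unlike those of Cyp21a1.

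The authors' classes describe the remaining reads. Incomplete splice matches, which hold part of an annotated chain, took 8.65% and 13.9% of reads in 40 and 42 models. Models joining known splice sites in a way not annotated (NIC) took 4.44% and 4.52% in 90 and 68 models. Those with a splice site not annotated (NNC) took 1.28% and 2.08% in 39 and 31 models. Single-exon genomic reads took 0.795% and 1.59%. The share of incomplete splice matches was 5.28 points higher in replicate 2, with an adjusted p of 1.51e-20 by Fisher's exact test over 5749 genes, of which 10.9% were called higher and 1.53% lower. Of the 47 genes that reached 1000 reads in both libraries, 23 were called higher and 5 lower.

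Of the 83 multi-exon chains found in both libraries, 21 carried a different class in each. All chains were therefore also sorted by their own splice sites, a step added once the data had been seen. The 3′ parts of the annotated chain, which hold its last introns but not its first, took 7.29% and 12.6% of reads. Chains of annotated introns with an unspliced one between them took 2.98% and 4.05%. Chains with an alternative splice site took 2.96% and 2.70%, and those that skip an exon 0.654% and 0.470%. Together with the full chain and the single-exon reads, these left under 1% of reads in each library to the other forms.

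**Figure D3:**
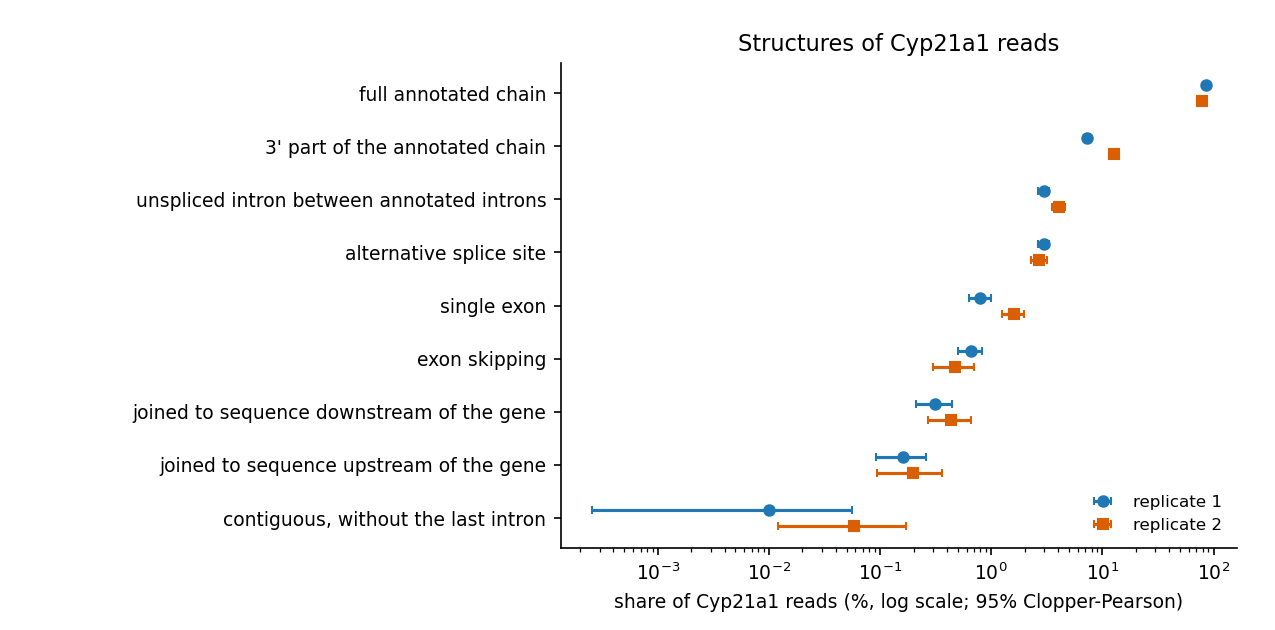
Share of Cyp21a1 reads by structure on a log scale, in percent, with 95% Clopper-Pearson intervals and 1 point per library. The full annotated chain lies at 84.8% and 77.9%, and the 3′ parts of it, at 7.29% and 12.6%, show the clearest separation of the libraries among the other forms.

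The 3′ parts were more frequent in replicate 2 at most starting points. Reads that lacked only the first intron numbered 469 in replicate 1 and 284 in replicate 2 (4.72% and 5.56%). Reads that began with intron 3 numbered 65 and 119 (0.654% and 2.33%), and with intron 4, 19 and 65 (0.191% and 1.27%). For introns 3, 4, 5 and 8 the 95% intervals of the libraries did not overlap. Reads that began with intron 7 were again more frequent, 86 and 64 (0.866% and 1.25%), than those that began with intron 6 or 8 in each library. Over all 8 forms the share was 5.33 points higher in replicate 2, with an adjusted p of 6.29e-23 by Fisher's exact test over 5184 genes. Of these genes 4.03% were called higher and 0.521% lower. Of the genes that reached 1000 reads in both libraries, 43 had a leading chain of more than 1 intron and entered this test. Their median share was 3.97% in replicate 1 and 5.75% in replicate 2, and 11 and 5 of them exceeded Cyp21a1. Of the 43, 17 were called higher and 3 lower. Of the pathway, Cyp11b1 (2.75% and 5.33%) and Hsd3b1 (10.4% and 12.4%) were called higher as well, and Cyp11a1 (5.64% and 5.70%) and Star (6.04% and 7.12%) were not called. For Hsd3b1 these are parts of a leading chain whose reads are themselves mostly incomplete splice matches. By contrast, only 1 and 3 reads of Cyp21a1 held a contiguous run of annotated introns without the last one.

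**Figure D4:**
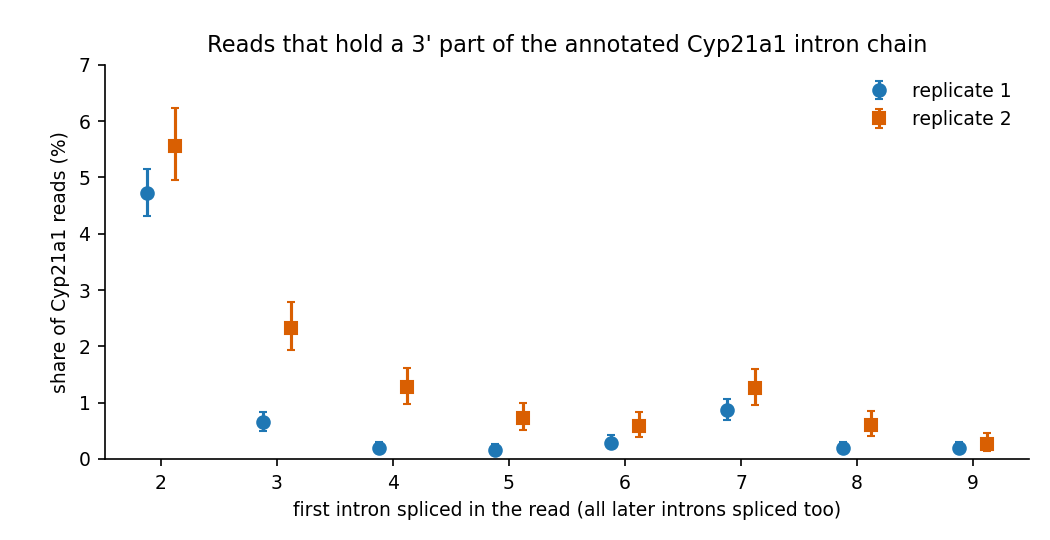
Share of Cyp21a1 reads, in percent, that hold a 3′ part of the annotated chain, by the first intron spliced, with 95% Clopper-Pearson intervals and 1 point per library. The largest shares, 4.72% and 5.56%, lack only intron 1, and the intervals of the libraries separate at introns 3, 4, 5 and 8.

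Introns were retained at unequal rates. A read was counted as retaining an intron where its model covered the whole intron and at least 10 bp of exon on both sides. Intron 1, of 64 bp, was covered in 7.83% and 8.89% of informative reads, intron 4 in 2.23% and 3.09%, and intron 3 in 1.98% and 2.18%. Intron 9 was covered in 1 and 2 reads (0.0102% and 0.0399%), and intron 2, the longest, in 27 and 5 (0.282% and 0.108%). The value of intron 1 overlaps with the share of 3′ parts. Reads that lack only the first intron enter both counts where their first exon covers it. It also depends on the 5′ ends of the models. Of the 312 models that were not annotated transcripts, 228 began at exactly the annotated start of Cyp21a1-202 and 290 at some annotated exon edge, so that a read that starts in intron 1 and a read that retains it cannot be told apart.

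In a second count, added once the data had been seen, only reads spliced at both the exon 1 donor and the exon 10 acceptor were used, 8854 and 4209 reads. There intron 3, whose 105 bp are a multiple of 3, was the most retained, with 59 and 41 reads (0.673%, 0.513 to 0.868, and 0.981%, 0.705 to 1.33). Intron 4 followed with 42 and 27 reads (0.478% and 0.644%). The intervals of introns 3 and 4 overlapped in each library. Intron 5 was retained in 3 and 12 reads (0.0339% and 0.285%), with intervals that did not overlap. Introns 1 and 9 are spliced in these reads by construction. Of the same reads, 95.2% and 94.5% carried the full annotated chain, with intervals of 94.7 to 95.6 and of 93.7 to 95.1 that overlapped, unlike those over all reads.

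**Figure D5:**
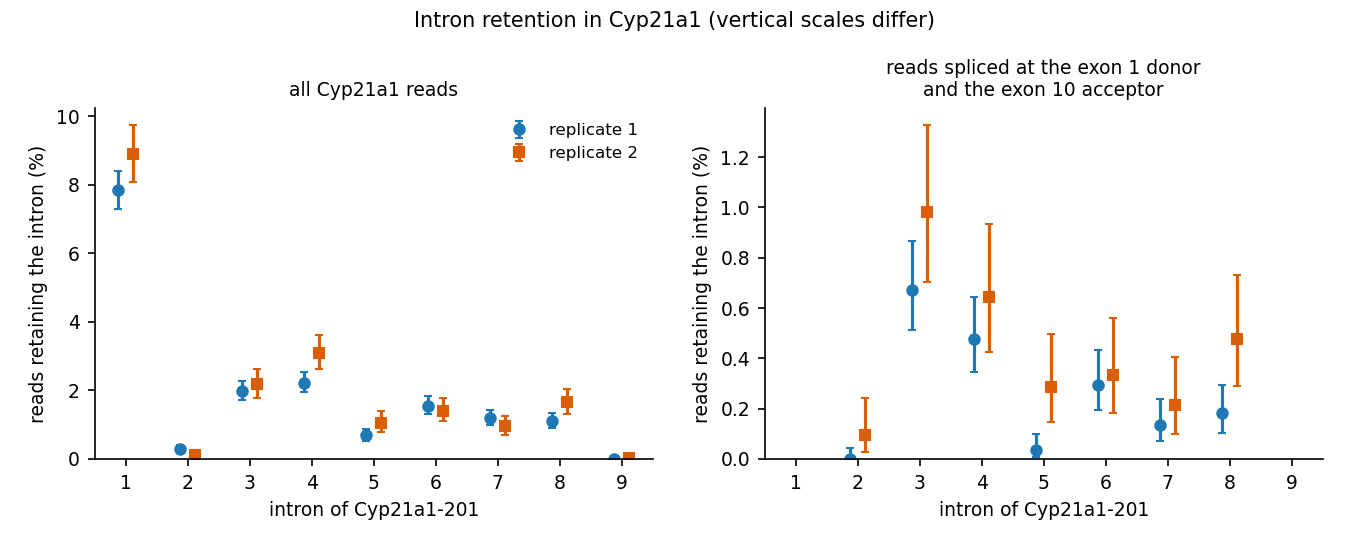
Share of reads retaining each intron of the annotated Cyp21a1 transcript, in percent, with 95% Clopper-Pearson intervals and 1 point per library, over all reads on the left and over reads spliced at both the exon 1 donor and the exon 10 acceptor on the right. Intron 1 leads on the left at 7.83% and 8.89%, and intron 3 on the right at 0.673% and 0.981%.

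Retained introns occurred together. Among reads spliced at intron 1 and at the exon 10 acceptor, 92 of 8754 in replicate 1 and 90 of 4173 in replicate 2 retained another intron (1.05% and 2.16%). Among reads whose first exon covered intron 1, 232 of 738 and 103 of 405 did (31.4% and 25.4%). At least 2 further introns were retained in 20.2% and 12.1% of the latter and in 0.400% and 0.575% of the former. One recurrent form covered intron 1 and kept intron 6 as well, in 26 and 18 reads. These shares are a description, since the reads come from 1 gene, and they share the limit on the 5′ ends given for intron 1.

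Splice sites other than those of the annotated transcript were rare but recurrent. Of 86065 and 42857 junctions counted over all reads, 429 and 199 (0.498%, 0.453 to 0.548, and 0.464%, 0.402 to 0.533) were not among its 9 introns, and the intervals of the libraries overlapped. They comprised 69 distinct junctions, 31 of them in both libraries and 2 of them annotated in other Cyp21a1 transcripts. Acceptors inside an exon made up the largest group, with 182 and 81 reads at 11 sites. Of these sites 9 were seen in both libraries, and each of the 9 followed the bases AG, which precede 7.39% of positions of the transcript. The aligner is not known here, so whether the alignment itself favoured sites after AG was not tested.

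Among acceptors inside exons, those with the most reads lay at the starts of exons 2, 5, 7 and 8. Their exon starts are shown 5′ to 3′ from the GENCODE transcript, because the bases lost decide the reading frame, and capitals mark the bases left out.
Cyp21a1 exon 2, whole, chr17:34804044-34804133: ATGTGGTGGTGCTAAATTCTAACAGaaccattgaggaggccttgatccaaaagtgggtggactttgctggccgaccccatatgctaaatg
Cyp21a1 exon 5, start, chr17:34803227-34803261: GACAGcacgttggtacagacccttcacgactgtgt
Cyp21a1 exon 7, start, chr17:34802791-34802871: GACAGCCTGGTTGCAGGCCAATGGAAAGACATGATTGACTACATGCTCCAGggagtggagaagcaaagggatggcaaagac
Cyp21a1 exon 8, start, chr17:34802439-34802474: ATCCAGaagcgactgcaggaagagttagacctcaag
In all 4 the capitals end in CAG.

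The exon 2 site, 25 bases in, was used by 52 of 8866 reads leaving the exon 1 donor in replicate 1 and 19 of 4218 in replicate 2 (0.587%, 0.438 to 0.768, and 0.450%, 0.271 to 0.703). The exon 5 site, 5 bases in, is annotated in Cyp21a1-203 and was used by 45 and 18 reads (0.475% and 0.379%). The exon 7 site, 51 bases in, was used by 36 and 21 reads (0.375% and 0.434%), and the exon 8 site, 6 bases in, by 20 and 15 (0.205% and 0.304%). For each of these 4 sites the intervals of the libraries overlapped. Exon 7 shares its first 5 bases with exon 5, and 12 and 4 reads left out just those bases of exon 7.

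Translated from the annotated start codon, the full chain reads 487 codons before its stop. Loss of 51 bases of exon 7 leaves 470 codons and loss of 6 bases of exon 8 leaves 485, both with the annotated stop. Loss of 25 bases of exon 2 shifts the frame, and the first stop follows 73 codons, within exon 2. Loss of 5 bases of exon 5 or of exon 7 brings a stop after 250 codons, in exon 7. These are readings of the reference sequence, and no protein was measured.

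Acceptors inside introns numbered 4, with 73 and 30 reads in all. A site 18 bp upstream of exon 4, which keeps the length a multiple of 3, was used by 50 and 20 reads (0.527% and 0.430% of reads leaving the exon 3 donor). Sites 14 bp upstream of exon 2, annotated in Cyp21a1-202, and 21 bp upstream of exon 10 had 9 and 4 and 10 and 4 reads. Among donors inside an exon that join an annotated acceptor, the most used, 62 bases before the end of exon 8, had 7 and 6 reads and stood before the bases GT. Only 4 of the 8 such donors stood before GT, with 15 of 22 reads in replicate 1 and 9 of 9 in replicate 2.

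Junctions that skip whole exons had 69 and 24 reads, most of them at exon 2 or exon 4, whose lengths are multiples of 3. The lengths of exons 5, 6 and 7 are multiples of 3 as well. Yet exon 5 alone was skipped by only 1 read, in replicate 1, and none of these junctions skipped exon 6 or exon 7. A length that keeps the frame therefore did not mark the skipped exons, and a link between length and skipping was not tested. Exon 2, of 90 bases, was skipped by 32 and 10 reads (0.361%, 0.247 to 0.509, and 0.237%, 0.114 to 0.436), and exon 4, of 96 bases, by 31 and 11 (0.327% and 0.236%). Read through in frame, the transcripts without exon 2 and without exon 4 hold 457 and 455 codons. Exon 4 is shown whole, all in capitals, as the part left out, and exon 2 is shown above.
Cyp21a1 exon 4, chr17:34803348-34803443: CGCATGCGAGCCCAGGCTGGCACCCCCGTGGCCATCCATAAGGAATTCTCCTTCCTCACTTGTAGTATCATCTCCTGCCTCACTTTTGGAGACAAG
Over all chains from the exon 1 donor to the exon 10 acceptor, 373 of 8802 and 199 of 4175 reads had a changed spliced length (4.24% and 4.77%). The change was a multiple of 3 in 214 (57.4%, 52.2 to 62.4) and 101 (50.8%, 43.6 to 57.9) of them.

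Some chains left the annotated gene. First exons upstream of the gene start were spliced into exon 1 in 16 and 10 reads (0.161% and 0.196%), from donors 379 and 58 bp upstream of that start. They enter exon 1 before the start codon, so the annotated start codon is kept. Within or beyond exon 10, junctions that remove the stop codon were carried by 32 and 21 reads (0.322%, 0.220 to 0.454, and 0.411%, 0.255 to 0.628). The most used donor among them lies 12 coding bases before the stop codon, and it was joined to a site 355 bp further on in exon 10 (10 and 5 reads) or to one 479 bp past the gene end (6 and 9 reads).

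Most Cyp17a1 reads were complete. All 9 reads of replicate 2 and 5 of the 6 of replicate 1 held all 7 introns of the leading transcript, in sum 14 of 15 reads (93.3%, 95% Clopper-Pearson interval 68.1 to 99.8). The last read held introns 5 to 7 in 4 exons. None of the 15 matched the second annotated coding transcript, which retains intron 7. With 15 reads, the interval of the full-chain share contains that of Cyp21a1, and the difference between the genes was not detectable. Cyp17a1 had under 20 reads in each library and so did not enter the tests over all genes of chain shares.

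The pseudogene Cyp21a2-ps (ENSMUSG00000092471.1), on the minus strand at chr17:34719813-34722252, is 97.8% identical to the Cyp21a1 transcript over 1383 aligned bases, and its reads could be shared with those of Cyp21a1. It had 153 and 118 reads, 1.52% and 2.26% of the reads of the pair, and was called lower in replicate 2 with a log2 ratio of -1.06 ± 0.18. With its reads added to those of Cyp21a1, a setting added once the data had been seen, the ratio of Cyp21a1 was -1.64. Its reads were far less uniform, with 45 and 35 chains and 24.8% and 25.4% of reads on the annotated one. The test of its chain share between libraries gave an adjusted p of 1 by Fisher's exact test.

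Neighbouring genes on the chromosomes had far fewer reads than Cyp21a1. C4a, a complement gene upstream of Cyp21a1, had 47 and 55 reads and was not called, and C4b had 52 and 325 and was higher in replicate 2. The liver list was high in that library, and its part in the C4b result was not tested. Stk19, Dxo and Skiv2l were not called, with log2 ratios between -0.79 and -0.13, of which those of Dxo and Skiv2l turn positive with TMM factors. Tnxa, which overlaps the 3′ end of Cyp21a1 on the opposite strand, had 2 reads in replicate 1. Around Cyp17a1, Wbp1l had 211 and 199 reads, As3mt 112 and 114, and Borcs7 6 and 11, all on the opposite strand. Of the 7 listed neighbours of Cyp21a1, 6 were tested, 1 was called lower and 1 higher, beside 25.3% and 11.5% of all genes, and Tnxb had 0 reads. No other record overlapped Cyp17a1.

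Distinct chains were also counted by recurrence, a minimum that frequent chains pass by construction. Of 229 distinct multi-exon chains of Cyp21a1, 51 had at least 2 reads in each library, and they held 97.4% and 95.9% of the reads. A single read in all supported 113 of the 229. Of the chains of replicate 1, 48.8% were also seen in replicate 2, and of the chains of replicate 2, 58.5% in replicate 1.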

How the data were processed

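The 2 long-read libraries of adrenal gland were analysed. The deposited values are read counts per transcript model, not normalised, with exon coordinates in annotation files; per the file headers the build is mm10 and the annotation GENCODE M21. For the aligner and all tool versions: not given in the sources used here. Per the deposited tables, exon number and length of each model are the authors' own.

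Counts were summed per gene, and CPM was taken over reads in annotated mouse genes, leaving out spike-ins. A chain was the same in both libraries where strand and every splice site were equal. Fisher's exact test (two-sided) compared the libraries for genes of 10 or more reads in all, and chain and class shares for genes of 20 or more per library. Calls are at an adjusted p (Benjamini-Hochberg) under 0.05. A prior of 0.5 reads entered log2 ratios. Intervals are 95% Clopper-Pearson or Poisson; they cover counting error only, since PCR copies were not told apart here. Motifs AG, CAG and GT were looked for on the transcript strand alone. Alternatives used edgeR 4.0.16 (TMM, and an exact test with an assumed coefficient of variation of 0.2) and DESeq2 1.42.0 size factors. Python 3.11.15, SciPy 1.17.1 and Biopython 1.88 were used, and the tests were checked on simulated counts.

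The members and gene lists were chosen with earlier results of these data known. Named genes are both members with every model, the listed genes, the 4 most abundant per list, and the 5 abundant genes with the nearest ratio. Por, Cyb5a, Mc2r and the genes at 0 or 1 reads were named beside these after their values were seen.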

Additional observations from a re-analysis of the deposited data

How the results depend on the processing

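No paired analysis was possible because both libraries belong to 1 group. Of 121 values under alternatives, 34 were of 1 library alone, which with 2 libraries stay within their spread by construction. A ratio or difference between libraries was kept where its direction and call were. A share or level was kept within the spread of the libraries, and a count within a set fold limit of the main count. With the 34 among them, 95 values were kept, 21 moved and 5 were reversed. All 5 were the log2 ratio of Cyp17a1, -0.14 and not called, which was 0.22 with TMM factors, 0.23 with DESeq2 size factors, 0.13 with known transcripts only, 0.14 without incomplete splice matches and 0.22 without genes over 10-fold different, and not called in any; the cause was not tested. The log2 ratio of Cyp21a1 was lower in replicate 2 under every scaling and class choice run, from -1.74 with known transcripts only to -1.28 with DESeq2 size factors (-1.29 with TMM factors). The edgeR exact test with an assumed coefficient of variation of 0.2 gave it an adjusted p of 0.00151. Genes called lower numbered 2876, and 1537 with TMM, 1517 with DESeq2 size factors, 1545 without genes over 10-fold different and 743 with the edgeR exact test. Genes called higher numbered 1307, and 2048, 2078, 2038 and 780 under the same settings. Genes whose leading-chain share was called lower numbered 552, and 290 with multi-exon reads only. Those called higher numbered 142, and 87 with multi-exon reads only or 83 with at least 50 reads in each library. Chains of Cyp21a1 in both libraries numbered 51, and 83 with at least 1 read or 27 with at least 5 reads in each.

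Mean retention of introns 2 to 8 fell from 0.195%, 2.08%, 2.66%, 0.874%, 1.48%, 1.07% and 1.38% to 0.0477%, 0.827%, 0.561%, 0.160%, 0.315%, 0.175% and 0.328% in reads spliced at both ends, a choice made after seeing the data. The NIC share went from 4.48% to 4.01% with models of at least 2 reads. Depth limits Cyp17a1, whose 15 reads give wide intervals, and structures under 3 reads.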

Other observations

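A few Cyp21a1 models joined the gene to the region of its pseudogene, 82 kb further downstream on the same strand. They held 15 reads in replicate 1 and 9 in replicate 2 (0.151%, 95% Clopper-Pearson interval 0.0845 to 0.249, and 0.176%, 0.0806 to 0.334). Most used a single junction, from a donor in the 3′ UTR, 91 bases before the end of the gene, to an acceptor 371 bp past the annotated end of Cyp21a2-ps, over an intron of 81996 bp (11 and 8 reads). With the copies aligned at the first base of their last exons, that acceptor lies 39 bases beyond the position that corresponds to the donor. Junctions from exon 8 or intron 7 of Cyp21a1 into Cyp21a2-ps had 1 read each, both in replicate 1. The transcripts of the copies are 97.8% identical, and whether these reads were molecules of the tissue was not tested.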
